A study of Homo sapiens with 8 samples.

Results

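The genes described here are 9 subunits of the polycomb repressive complexes (EZH2, EZH1, SUZ12, EED, JARID2, RNF2, BMI1, CBX2 and CBX7) and PIK3IP1, a gene known to be opposed by EZH2 and favoured by ARID1A. They were chosen by name and not by a cutoff on their measured values, although earlier results of these data were known. Their Ensembl IDs include ENSG00000106462 for EZH2, ENSG00000178691 for SUZ12 and ENSG00000100100 for PIK3IP1. EZH2 lies on chromosome 7, EZH1, SUZ12 and CBX2 on 17, EED on 11, JARID2 on 6, RNF2 on 1, BMI1 on 10, and CBX7 and PIK3IP1 on 22. All 10 were found among the 57736 Ensembl IDs of the count table, and all 10 were among the 16657 genes that passed the filter on low counts and were tested.

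The libraries came from RMG1, an established human line of ovarian clear cell carcinoma. Every group had 2 libraries. The wild-type group is labelled as wild type for ARID1A and CAPH2, and the ARID1A-knockout group as lacking ARID1A, the subunit of the SWI/SNF chromatin remodeller that is often lost in this tumour type. In the other pair, cells with a control shRNA were set against cells with a knockdown of CAPH2, the protein made from NCAPH2, which is a subunit of the chromosome-compacting complex condensin II. Both groups of the shRNA pair keep ARID1A. The sources used here do not say whether the knockout is a clone or a pool, nor whether both libraries of a group were grown separately. The p-values therefore rest on the spread between 2 libraries of a group, which could be technical spread alone.

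Polycomb repressive complex 2 (PRC2) writes a repressive methyl mark on histone H3. EZH2 or its homologue EZH1 is the catalytic subunit, SUZ12 and EED hold the enzyme in its active form, and JARID2 is an accessory subunit that helps recruit the complex. Polycomb repressive complex 1 (PRC1) adds ubiquitin to histone H2A through RNF2 (RING1B), which pairs with a PCGF protein such as BMI1, and CBX proteins such as CBX2 and CBX7 read the PRC2 mark. PIK3IP1 is a transmembrane protein that inhibits phosphoinositide 3-kinase (PI3K). SWI/SNF and polycomb are classical antagonists on chromatin, and in ovarian clear cell carcinoma PIK3IP1 is the textbook example of a gene on which ARID1A and EZH2 act in opposite directions.

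The promoters of EZH2, SUZ12 and PIK3IP1 are shown because the values below turn on these 3 genes. Each is the window from 250 bases before to 10 bases after the annotated start, from RefSeq on GRCh38.p14, on the gene's own strand, and capitals mark matches to 2 motifs. The first motif is an E2F-type site, searched as TTTGGCGC, TTTCCCGC, TTTGCCGC and TTTCGCGC with their reverse complements GCGCCAAA, GCGGGAAA, GCGGCAAA and GCGCGAAA. The second is the CCAAT box, searched as CCAAT and its reverse complement ATTGG, which overlaps none of the first.
EZH2 (chr7:148884282-148884541, minus strand): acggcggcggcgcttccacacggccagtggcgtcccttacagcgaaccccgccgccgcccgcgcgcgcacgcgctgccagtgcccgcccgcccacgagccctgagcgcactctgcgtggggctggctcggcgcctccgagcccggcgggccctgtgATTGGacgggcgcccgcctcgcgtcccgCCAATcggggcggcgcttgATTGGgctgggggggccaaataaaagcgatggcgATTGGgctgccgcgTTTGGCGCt
SUZ12 (chr17:31936757-31937016, plus strand): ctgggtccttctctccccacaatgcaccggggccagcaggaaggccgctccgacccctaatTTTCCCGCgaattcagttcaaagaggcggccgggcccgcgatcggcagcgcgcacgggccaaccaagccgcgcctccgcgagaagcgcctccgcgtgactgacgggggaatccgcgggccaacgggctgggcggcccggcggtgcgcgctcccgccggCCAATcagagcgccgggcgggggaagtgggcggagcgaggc
PIK3IP1 (chr22:31292525-31292784, minus strand): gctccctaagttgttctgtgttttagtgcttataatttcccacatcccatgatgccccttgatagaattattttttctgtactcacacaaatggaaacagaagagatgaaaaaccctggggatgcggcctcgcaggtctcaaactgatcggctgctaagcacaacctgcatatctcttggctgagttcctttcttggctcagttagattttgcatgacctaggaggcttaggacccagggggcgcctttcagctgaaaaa

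The EZH2 window holds 40 CpG dinucleotides, 1 E2F-type match and 4 CCAAT matches. Over the 27305 windows of the RefSeq table, 2.91% hold an E2F-type match (4.64% of the windows of genes tested here), and 0.967% hold 4 or more CCAAT matches. The SUZ12 window holds 36 CpG dinucleotides, 1 E2F-type match and 1 CCAAT match, and 33.7% of all windows hold at least 1 CCAAT match. EZH1 is the only other gene of the 9 with a window in the table that has an E2F-type match, GCGGCAAA, and its window has 27 CpG dinucleotides. The PIK3IP1 window holds 4 CpG dinucleotides and neither motif. As few or fewer CpG were found in 34.1% of all windows, but in 8.34% of the 11174 windows of genes tested here, whose median was 22.0. The windows of CBX7, RNF2, BMI1, JARID2 and EED hold 41, 35, 35, 22 and 11 CpG dinucleotides. CBX2 has no window in the table. A match is a string of letters and no evidence that a factor binds.

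Total counts were 24559547 to 37378691 a library. ARID1A RNA was at 8.80 and 12.1 CPM (the count relative to library size, scaled by trimmed means of M values) in wild-type cells and at 6.66 and 5.62 CPM in knockout cells (log2 change -0.77, edgeR adjusted p = 0.00274), so ARID1A RNA was still present. The sources used here do not say which part of the gene was edited. NCAPH2 was at 24.0 and 25.8 CPM in shRNA control cells and at 8.99 and 8.74 CPM in knockdown cells (log2 change -1.49, edgeR adjusted p = 1.843e-06). NCAPH2 was also lower in knockout cells, at 20.97 and 23.9 CPM against 26.8 and 30.0 CPM in wild-type cells (log2 change -0.34, edgeR adjusted p = 0.0144), a call that needed wild-type library 2 (-0.26 without it) and knockout library 1 (-0.25 without it). The 7 matched clear cell and epithelial markers summed to 1871 to 2109 CPM. In knockout cells 2 of them were higher and 3 lower, against 16.8% and 17.8% of all tested genes. CDH1 (log2 change 0.96) and EPCAM (0.29) rose, KRT8 (-0.70), MUC1 (-1.115) and NAPSA (-0.75) fell, and KRT18 and PAX8 did not pass. Markers of other cell types were scarce. The fibroblast markers summed to 1.10 to 1.12 CPM in knockout cells and 0.435 to 0.496 CPM in wild-type cells. COL1A2 and COL3A1 were at 0 in every library, and LUM was counted in the knockout libraries alone, at 0.356 and 0.705 CPM. The leukocyte markers summed to 4.05 to 5.15 CPM in knockout cells and 1.304 to 3.18 CPM in wild-type cells, with CD3E at 0 in every library. In that list PTPRC was at 0.0413 and 0 CPM in wild-type cells and at 2.25 and 1.99 CPM in knockout cells. CD14 went the other way, from 0.372 and 0.435 CPM to 0.0274 and 0 CPM (edgeR adjusted p = 0.00368). LUM and PTPRC passed the filter on low counts through their knockout libraries, so their values are a description. The endothelial markers summed to 0.157 to 0.219 CPM in knockout cells and 0.761 to 1.03 CPM in wild-type cells, with KDR at 0 in every library and TEK at 0.219 and 0.105 CPM against 0.909 and 0.761 CPM (edgeR adjusted p = 0.00773). Their part in the results below was not tested. In bulk RNA, fewer cells that express a gene and less RNA per cell cannot be told apart.

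Levels of different genes were compared as CPM per kilobase of the longest annotated transcript. On this length SUZ12, BMI1 and EZH2 were the most abundant, with means over the 8 libraries of 18.6, 17.0 and 13.2 CPM per kilobase, and the library ranges of neighbours in this order overlapped. EED, EZH1 and RNF2 followed at 8.68, 7.96 and 7.57 CPM per kilobase, again with overlapping ranges, and JARID2 stood alone at 4.59 CPM per kilobase. PIK3IP1, CBX7 and CBX2 were scarce, at 0.794, 0.765 and 0.630 CPM per kilobase, and the highest of their libraries, at 1.42, lay below the lowest JARID2 library, at 3.89. Much of this order depended on the transcript length used. On the median transcript length EZH1 came after BMI1 alone and EZH2, at 19.3, came below RNF2, at 20.9 CPM per kilobase. The EZH2 level was 0.482 times that of EZH1, so these counts do not settle the order of the 2 catalytic subunits. There PIK3IP1 came last, and CBX7, at 3.36 to 5.71 CPM per kilobase, overlapped JARID2, whose mean was 4.72 and highest library 5.22 CPM per kilobase. On both lengths JARID2, CBX7, CBX2 and PIK3IP1 were the lowest 4.

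**Figure D1:**
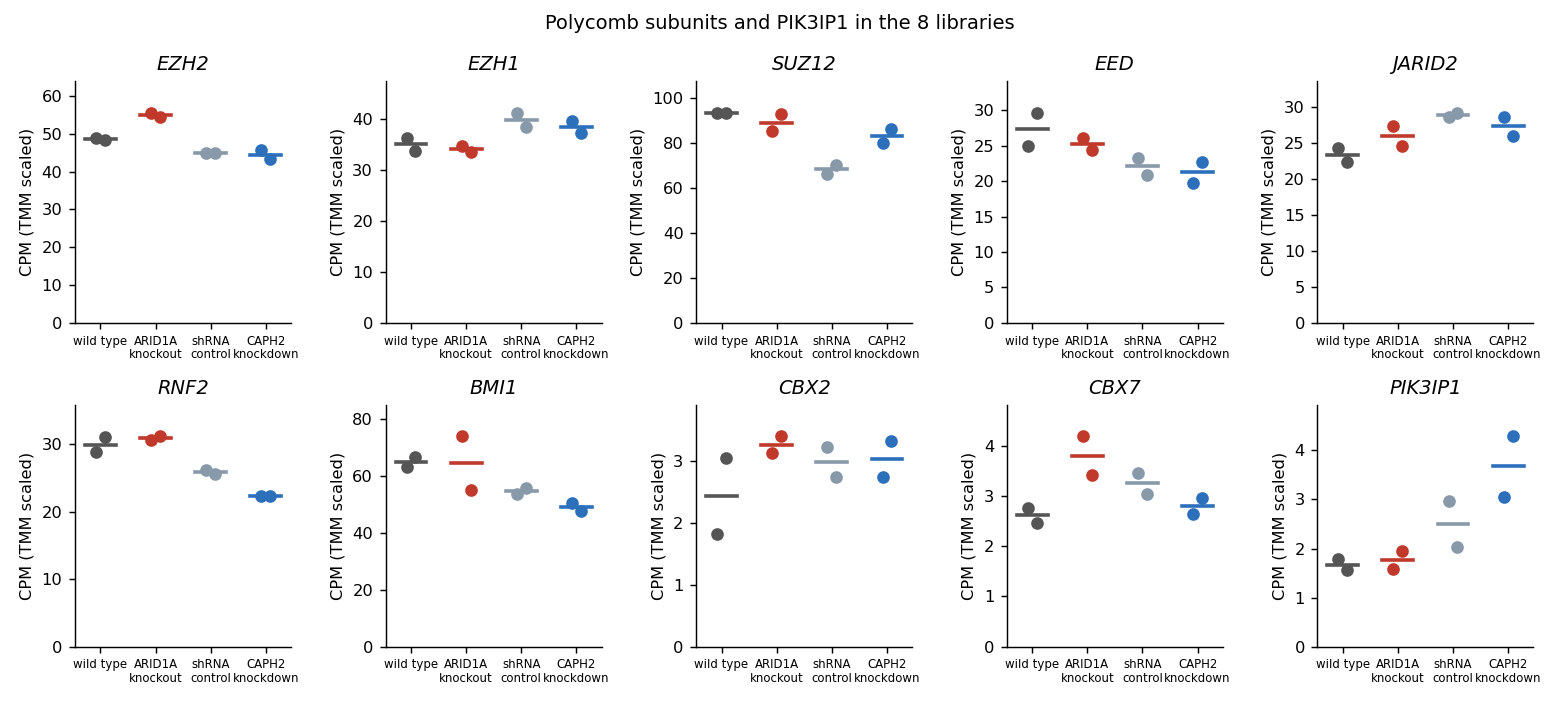
CPM (scaled by trimmed means of M values, axis from 0) of the 10 genes in the 8 libraries; points are libraries and horizontal lines are means of 2. The knockout libraries are the 2 highest of the 8 for EZH2, the shRNA control libraries are the 2 lowest for SUZ12, and PIK3IP1 is at most 4.29 CPM.

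In knockout cells EZH2 RNA was higher, by a log2 change of 0.18, and it was the only one of the 10 genes to pass the test. The background was larger: 34.5% of the 16657 tested genes passed, counting an adjusted p under 0.05 in edgeR's quasi-likelihood test with Benjamini-Hochberg adjustment. The median size of the log2 change, without its sign, was 0.11 over the 10 genes and 0.31 over all tested genes. Libraries of the 2 groups did not overlap for 5 of the 10 genes, against 64.5% of all tested genes.

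EZH2 was at 48.9 and 48.2 CPM in wild-type cells and at 55.6 and 54.4 CPM in knockout cells. Both knockout libraries lay above all 6 others. The log2 change was 0.18 (95% interval 0.05 to 0.31, edgeR adjusted p = 0.0371), a 1.13-fold difference. This call is fragile: leaving out any 1 of the 8 libraries ended it, with log2 changes of 0.16 to 0.20 and adjusted p of 0.0545 to 0.161, and DESeq2 gave an adjusted p of 0.0938. The direction was the same in all of these fits. The 40 tested genes nearest to EZH2 on chromosome 7 had a median log2 change of -0.21 in knockout cells, so EZH2 lay 0.38 above its neighbours. Between shRNA control and wild-type cells, which both carry ARID1A, the same 40 genes had a median log2 difference of 0.21. EZH2 less that median was -0.32, so a gap of similar size was also seen without the knockout.

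EZH1, which forms a PRC2 of lower methylating activity and is typical of resting cells, was at 36.3 and 33.7 CPM in wild-type cells and at 34.8 and 33.4 CPM in knockout cells. These values overlapped, and the log2 change was -0.04 (95% interval -0.20 to 0.12, edgeR adjusted p = 0.739). The count ratio of EZH2 to EZH1, which was looked at after the values were seen and was not tested, was 1.35 and 1.43 in wild-type cells and 1.60 and 1.63 in knockout cells. It was lower in both shRNA groups, at 1.09 and 1.17 in control cells and at 1.16 and 1.16 in knockdown cells.

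The core partners of EZH2 did not pass the test. SUZ12 was at 93.3 and 93.4 CPM in wild-type cells and at 85.0 and 92.7 CPM in knockout cells, with a log2 change of -0.07 (95% interval -0.21 to 0.07, edgeR adjusted p = 0.442). EED was at 25.1 and 29.7 CPM in wild-type cells and at 26.1 and 24.4 CPM in knockout cells, with a log2 change of -0.12 (95% interval -0.35 to 0.11, edgeR adjusted p = 0.423). Both intervals include 0, and the knockout libraries of EED straddled the lower wild-type library. JARID2 was at 24.3 and 22.4 CPM in wild-type cells and at 27.4 and 24.6 CPM in knockout cells. Its knockout libraries lay just above the wild-type ones, and the log2 change of 0.16 (95% interval -0.03 to 0.35, edgeR adjusted p = 0.191) did not pass. It was 0.08 without knockout library 1 and 0.10 without wild-type library 2, and 0.23 without knockout library 2.

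Of the 4 PRC1 genes, 0 passed in edgeR's quasi-likelihood test, 1 (CBX7) had an unadjusted p under 0.05, and DESeq2 called 0. RNF2 was at 28.9 and 31.1 CPM in wild-type cells and at 30.7 and 31.2 CPM in knockout cells, with a log2 change of 0.05 (95% interval -0.11 to 0.20, edgeR adjusted p = 0.663). The CBX readers were too scarce for a narrow interval. CBX7 was at 2.77 and 2.46 CPM in wild-type cells, from 67 and 68 counts, and at 4.19 and 3.42 CPM in knockout cells, from 153 and 131 counts. Its knockout libraries lay above its wild-type ones. The log2 change of 0.54 was the largest of the 10 genes, but its interval ran from 0.09 to 1.00 and its edgeR adjusted p was 0.0641, which fell to 0.0488 when libraries were scaled by size alone. CBX2 was at 1.82 and 3.04 CPM in wild-type cells and at 3.13 and 3.40 CPM in knockout cells. Its wild-type libraries lay further apart than its knockout ones, with the higher just below the lower knockout library. The log2 change was 0.41 (95% interval -0.15 to 0.98, edgeR adjusted p = 0.246). The value rested on which wild-type library was used: it was 0.10 (adjusted p = 0.818) without wild-type library 1 and 0.84 (adjusted p = 0.0437) without wild-type library 2.

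**Figure D2:**
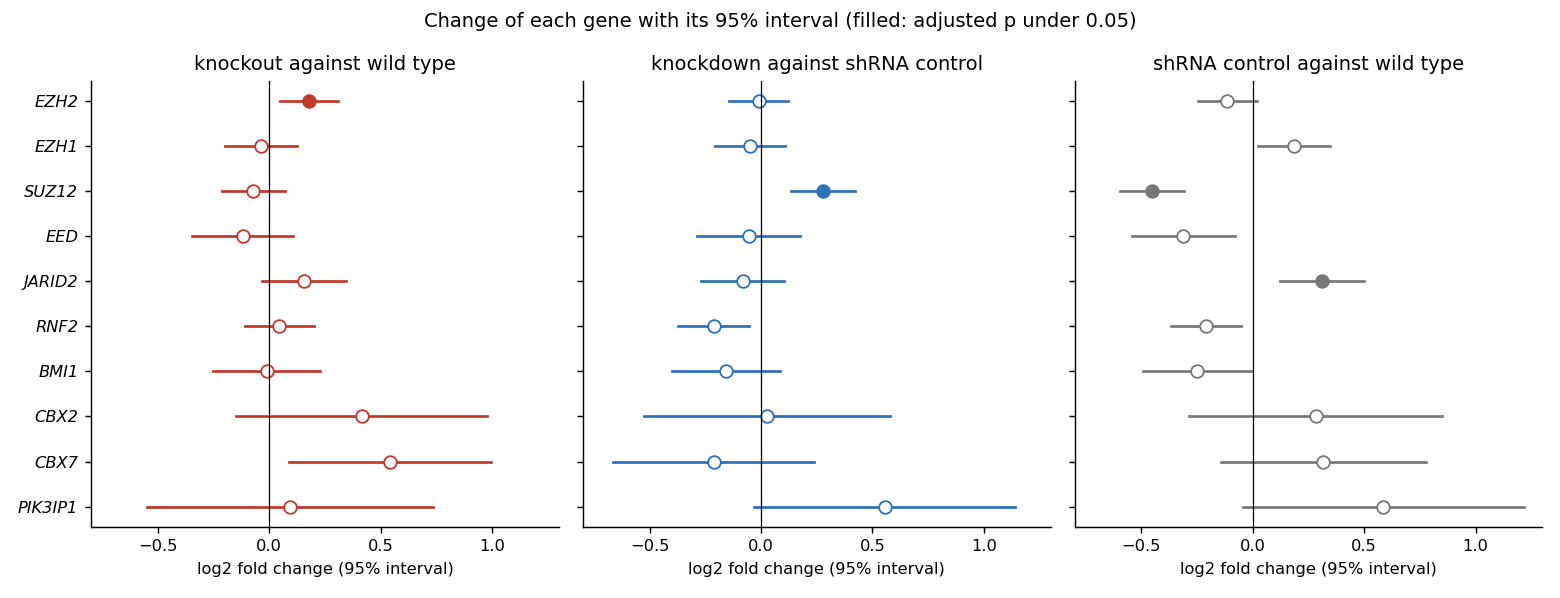
Log2 fold change of each gene with its 95% interval in 3 comparisons; filled points have an edgeR adjusted p under 0.05. EZH2 is the only filled point for the knockout and SUZ12 for the knockdown, and the intervals of CBX2, CBX7 and PIK3IP1 are the widest.

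BMI1 needed a second look, because the annotation also lists COMMD3-BMI1, a readthrough gene that shares its exons. BMI1 alone was at 63.1 and 66.6 CPM in wild-type cells and at 73.8 and 54.9 CPM in knockout cells, so the knockout libraries lay on both sides of the wild-type ones (log2 change -0.01, 95% interval -0.25 to 0.23, edgeR adjusted p = 0.952). COMMD3-BMI1 was at 20.4 and 20.9 CPM in wild-type cells and at 19.7 and 40.8 CPM in knockout cells. Knockout library 2 had 42.6% of the counts of the pair on COMMD3-BMI1, where the other 7 libraries had 21.1% to 27.6%. The counting program divides reads that fit both genes by estimation.

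Summed over both genes, the levels were 83.5 and 87.5 CPM in wild-type cells and 93.5 and 95.7 CPM in knockout cells, and the 2 knockout libraries no longer disagreed. The summed log2 change was 0.15 (95% interval 0.01 to 0.28, edgeR adjusted p = 0.0834). In shRNA control cells the sum was 71.1 and 75.3 CPM, and in knockdown cells 69.6 and 65.0 CPM. This sum was chosen after the values were seen, and it was not recomputed with libraries left out. It turned 3 comparisons of BMI1 into calls: the knockout effect against the knockdown effect (log2 0.27, edgeR adjusted p = 0.0382), shRNA control against wild type (log2 -0.22, edgeR adjusted p = 0.0246) and knockout against shRNA control (log2 0.37, edgeR adjusted p = 4.383e-04).

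**Figure D3:**
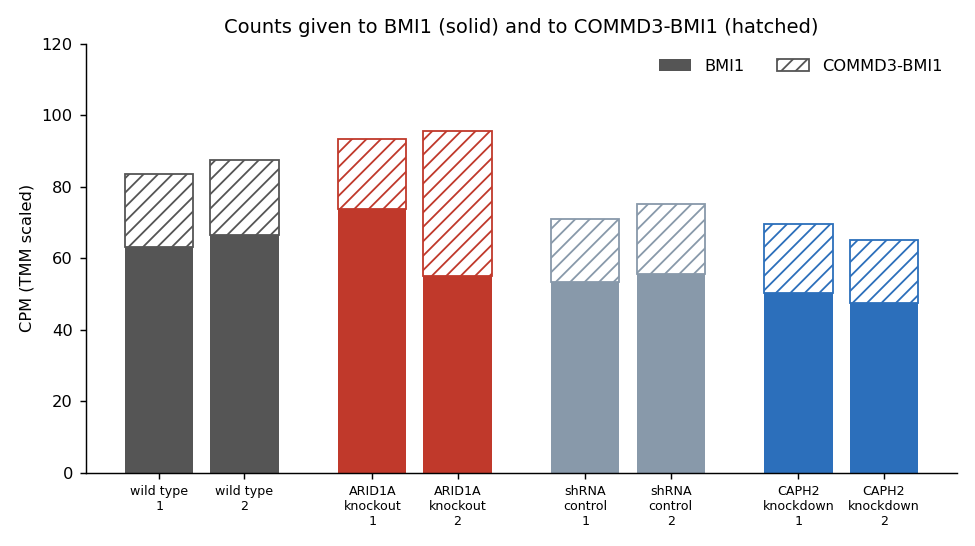
CPM given to BMI1 (solid) and to the readthrough gene COMMD3-BMI1 (hatched) in the 8 libraries; each bar is 1 library and its height is the sum. Knockout library 2 has 42.6% of its bar hatched against 21.1% to 27.6% elsewhere, while the sums of the 2 knockout libraries are 93.5 and 95.7 CPM.

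PIK3IP1 was scarce in RMG1 with or without ARID1A. It was at 1.78 and 1.56 CPM in wild-type cells, from 43 and 43 counts, and at 1.59 and 1.96 CPM in knockout cells, from 58 and 75 counts. The groups overlapped. The log2 change was 0.09 (95% interval -0.55 to 0.73, edgeR adjusted p = 0.843), so at this depth neither a rise nor a fall of up to about these limits could be told from no change. The 40 nearest tested genes on chromosome 22 had a median log2 change of -0.01.

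In the shRNA pair PIK3IP1 was at 2.97 and 2.04 CPM in control cells and at 3.06 and 4.29 CPM in knockdown cells, from 96, 73, 97 and 133 counts. Both knockdown libraries lay above both control libraries, and knockdown library 2 was the highest of the 8. The log2 change of 0.55 (95% interval -0.03 to 1.14, edgeR adjusted p = 0.201) did not pass, and it was 0.29 to 0.85 with 1 library left out. The difference between the knockout and the knockdown effect was -0.46 (95% interval -1.33 to 0.41, edgeR adjusted p = 0.444).

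Between knockdown and shRNA control cells 1 of the 10 genes, SUZ12, passed the test, against a background of 15.8% of all tested genes. Libraries of the 2 groups did not overlap for 6 of the 10 genes, against 59.0% of all tested genes. SUZ12 was at 66.2 and 70.3 CPM in shRNA control cells and at 79.7 and 85.9 CPM in knockdown cells. The knockdown libraries lay above the control ones but below both wild-type libraries. The log2 change was 0.28 (95% interval 0.14 to 0.42, edgeR adjusted p = 0.0128). It no longer passed without shRNA control library 1 (log2 0.24, adjusted p = 0.142) or without knockdown library 2 (log2 0.22, adjusted p = 0.140). SUZ12 has a partial copy, SUZ12P1, with which its reads could be confused, and summing both gave a log2 change of 0.24 (edgeR adjusted p = 0.0205).

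For SUZ12, knockdown against shRNA control was unlike knockout against wild type. The knockout effect minus the knockdown effect was -0.35 on the log2 scale (95% interval -0.55 to -0.15, edgeR adjusted p = 0.0150). SUZ12 was the only one of the 10 genes for which this difference passed, against 26.3% of all tested genes. The call was lost without knockout library 1 (-0.29, adjusted p = 0.0741), without shRNA control library 1 (-0.31, adjusted p = 0.0797) or without knockdown library 2 (-0.30, adjusted p = 0.0789). For EZH2 the same difference was 0.19 (95% interval 0.00 to 0.38, edgeR adjusted p = 0.129).

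Of the other 4 PRC2 genes, 0 passed in the knockdown in edgeR's quasi-likelihood test, 0 had an unadjusted p under 0.05, and DESeq2 called 0. EZH2 was at 44.9 and 44.8 CPM in control cells and at 45.8 and 43.2 CPM in knockdown cells, with a log2 change of -0.01 (95% interval -0.14 to 0.12, edgeR adjusted p = 0.939). EZH1, at 41.2 and 38.3 against 39.6 and 37.2 CPM, and EED, at 23.3 and 20.9 against 19.8 and 22.8 CPM, both had a log2 change of -0.05. JARID2 was at 28.7 and 29.2 CPM in control cells and at 28.6 and 26.0 CPM in knockdown cells, a log2 change of -0.08 (95% interval -0.27 to 0.10, edgeR adjusted p = 0.585).

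RNF2 was lower in knockdown cells, at 22.4 and 22.3 CPM, than in shRNA control cells, at 26.2 and 25.6 CPM. The knockdown libraries were the 2 lowest of the 8. The log2 change was -0.21 (95% interval -0.37 to -0.05), and its edgeR adjusted p of 0.0713 missed the threshold. It passed without wild-type library 1 or 2 (adjusted p = 0.0461 and 0.0463) and in a fit of the shRNA pair alone (adjusted p = 0.0488). BMI1 alone was at 53.5 and 55.5 CPM in control cells and at 50.4 and 47.4 CPM in knockdown cells, with a log2 change of -0.16 (95% interval -0.40 to 0.09, edgeR adjusted p = 0.402). CBX7 was at 3.47 and 3.04 CPM against 2.65 and 2.97 CPM, and CBX2 at 3.22 and 2.74 CPM against 2.74 and 3.32 CPM. Their log2 changes of -0.21 (95% interval -0.66 to 0.24) and 0.03 (95% interval -0.52 to 0.58) did not pass.

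The 2 control groups, which both carry ARID1A and CAPH2, also differed in some of these genes. Between shRNA control and wild type, 2 of the 10 genes passed, against 19.2% of all tested genes, and the libraries did not overlap for 9 of the 10, against 57.5%. The median size of the log2 difference, without its sign, was 0.30 over the 10 genes and 0.23 over all tested genes. SUZ12 was lower in shRNA control cells with a log2 difference of -0.45 (95% interval -0.59 to -0.31, edgeR adjusted p = 7.594e-04), and it passed with each library left out in turn. JARID2 was higher by 0.31 (95% interval 0.12 to 0.50, edgeR adjusted p = 0.0272), a call that was lost without wild-type library 2 (0.25, adjusted p = 0.115), shRNA control library 1 (0.33, adjusted p = 0.106) or shRNA control library 2 (0.30, adjusted p = 0.140). EED (-0.31), RNF2 (-0.21), BMI1 (-0.25), EZH2 (-0.12), EZH1 (0.18), CBX7 (0.32) and PIK3IP1 (0.59) also had no overlap, without passing the test. The sources used here do not say what else differs between the 2 control groups.

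Because of this gap, the knockout was also set against the shRNA control, a comparison that shares its knockout libraries with the first and its control libraries with the second. It called 4 of the 10 genes, against 41.8% of all tested genes, and libraries did not overlap for 7 of the 10, against 72.6%. EZH2 was higher by 0.29 (95% interval 0.17 to 0.42, edgeR adjusted p = 0.00192) and SUZ12 by 0.38 (95% interval 0.24 to 0.52, edgeR adjusted p = 6.256e-04), and both passed with each library left out in turn. RNF2 was higher by 0.26 (edgeR adjusted p = 0.0123), and EZH1 was lower, with a log2 difference of -0.22 (edgeR adjusted p = 0.0274). RNF2 lost its call without knockout library 2 (0.24, adjusted p = 0.0743), shRNA control library 1 (0.27, adjusted p = 0.0570) or shRNA control library 2 (0.24, adjusted p = 0.0879). EZH1 lost its call without knockout library 1 (-0.25, adjusted p = 0.0684), knockout library 2 (-0.19, adjusted p = 0.151) or shRNA control library 1 (-0.17, adjusted p = 0.197), with DESeq2 (-0.22, adjusted p = 0.0736) and with scaling by library size alone (-0.15, adjusted p = 0.123). PIK3IP1 differed by -0.49 (95% interval -1.10 to 0.11, edgeR adjusted p = 0.182). Of the 10 genes, EZH2 alone passed as higher in knockout cells against both control groups, and leaving out any library ended the first of these calls. The share of all tested genes that passed as higher in both was not counted, and the 2 comparisons share the knockout libraries.

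Other genes of the polycomb system changed in both directions. Knockout changes here and in the lists below are against wild type, and some did not pass against the shRNA control. Of 40 further polycomb genes with an ID, 36 were tested. In knockout cells 6 were higher and 8 lower, together 38.9% against 34.5% of all tested genes, and in knockdown cells 2 were higher and 4 lower, together 16.7% against 15.8%. With each library left out in turn, 7 of the 14 knockout calls passed in all 8 fits (MTF2, LCOR, LCORL, PHC2, PCGF3, PCGF5 and MBD5), and 2 of the 6 knockdown calls did (PHF19 and PCGF5).

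Of 8 other tested PRC2 genes, 2 rose and 1 fell in knockout cells, against 16.8% and 17.8% of all tested genes. MTF2, a polycomb-like protein that brings PRC2 to CpG islands, went from 68.8 and 62.9 CPM to 79.1 and 83.8 CPM (log2 change 0.31, edgeR adjusted p = 0.00424). LCORL, a PRC2 accessory gene, rose from 45.4 and 43.9 CPM to 62.6 and 66.9 CPM (log2 change 0.54, edgeR adjusted p = 2.588e-04). Its relative LCOR fell from 87.6 and 87.8 CPM to 64.0 and 69.4 CPM (log2 change -0.40, edgeR adjusted p = 0.00122). In the knockdown, PHF19, another polycomb-like protein, alone of the 8 passed, against 15.8% of all tested genes. PHF19 went from 15.9 and 16.3 CPM to 11.2 and 10.3 CPM (log2 change -0.58, edgeR adjusted p = 0.00203).

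Of 9 other tested genes of canonical PRC1, 1 rose and 2 fell in knockout cells, against 16.8% and 17.8% of all tested genes. Of the polyhomeotic genes, PHC1 and PHC2 went opposite ways, and PHC3 did not pass (log2 change 0.04, edgeR adjusted p = 0.666). PHC2 fell from 34.1 and 34.6 CPM to 21.8 and 18.8 CPM (log2 change -0.76, edgeR adjusted p = 3.440e-05), and PHC1 rose by 0.45 (edgeR adjusted p = 0.0156). The PHC1 call needed wild-type library 1 (0.42 without it) and both knockout libraries (0.45 and 0.46). PHC1 was at 12.2 and 12.1 CPM in knockout cells and at 13.3 and 10.6 CPM in shRNA control cells (log2 difference 0.03, edgeR adjusted p = 0.883). In knockdown cells PHC3 had a log2 change of -0.26 (edgeR adjusted p = 0.0104). That call was lost without shRNA control library 1 (-0.21), knockdown library 1 (-0.27) or knockdown library 2 (-0.25). RING1, the paralogue of RNF2, fell in knockout cells by a log2 change of -0.38 (edgeR adjusted p = 0.0256) and rose in knockdown cells by 0.43 (edgeR adjusted p = 0.0218). The first call did not pass once wild-type library 1 (-0.33) or knockout library 1 (-0.29) was dropped, nor the second without any 1 of the 4 libraries of the shRNA pair (0.40 to 0.45), and DESeq2 made neither call (adjusted p = 0.0892 and 0.0565).

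Variant PRC1 replaces the CBX reader by RYBP or YAF2 and BMI1 by another PCGF protein. Of its 13 tested genes, 3 rose and 3 fell in knockout cells, against 16.8% and 17.8% of all tested genes. PCGF3 rose from 47.1 and 51.3 CPM to 62.7 and 60.1 CPM (log2 change 0.32, edgeR adjusted p = 0.00198). In shRNA control cells PCGF3 was as high, at 63.5 and 63.5 CPM (knockout against shRNA control -0.05, edgeR adjusted p = 0.553). PCGF5 fell in knockout cells, from 70.3 and 72.6 CPM to 53.6 and 58.0 CPM (log2 change -0.36, edgeR adjusted p = 0.00145), and rose in knockdown cells, from 55.1 and 57.4 CPM to 71.8 and 78.3 CPM (log2 change 0.42, edgeR adjusted p = 0.00115). Like those of SUZ12, the shRNA control libraries of PCGF5 lay below the wild-type ones (log2 difference -0.35, edgeR adjusted p = 0.00410). Knockout cells did not differ from shRNA control cells in PCGF5 by the test (-0.01, edgeR adjusted p = 0.913). RYBP fell in both comparisons, by log2 changes of -0.31 (edgeR adjusted p = 0.00756) and -0.33 (edgeR adjusted p = 0.0114). The RYBP call did not hold in the knockout once wild-type library 2 (-0.23) or knockout library 2 (-0.30) was dropped, and in the knockdown without shRNA control library 2 or knockdown library 2 (-0.29 in each). A further 6 tested genes remove polycomb marks or work beside the histone H2A deubiquitinase. Of these, MBD5 and ASXL2 fell in the knockout, where 17.8% of all tested genes did. MBD5 went from 15.7 and 17.3 CPM to 9.59 and 10.2 CPM (log2 change -0.74, edgeR adjusted p = 4.310e-04), and shRNA control cells, at 8.85 and 10.5 CPM, were as low. ASXL2 had a log2 change of -0.25 (edgeR adjusted p = 0.0435), which DESeq2 did not call (adjusted p = 0.0550) and which did not pass in 5 of the 8 fits with a library left out (-0.26 to -0.19). In the knockdown ASXL2 had a log2 change of -0.33 (edgeR adjusted p = 0.0237), a call lost without shRNA control library 1 (-0.19), knockdown library 1 (-0.37) or knockdown library 2 (-0.30).

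**Figure D4:**
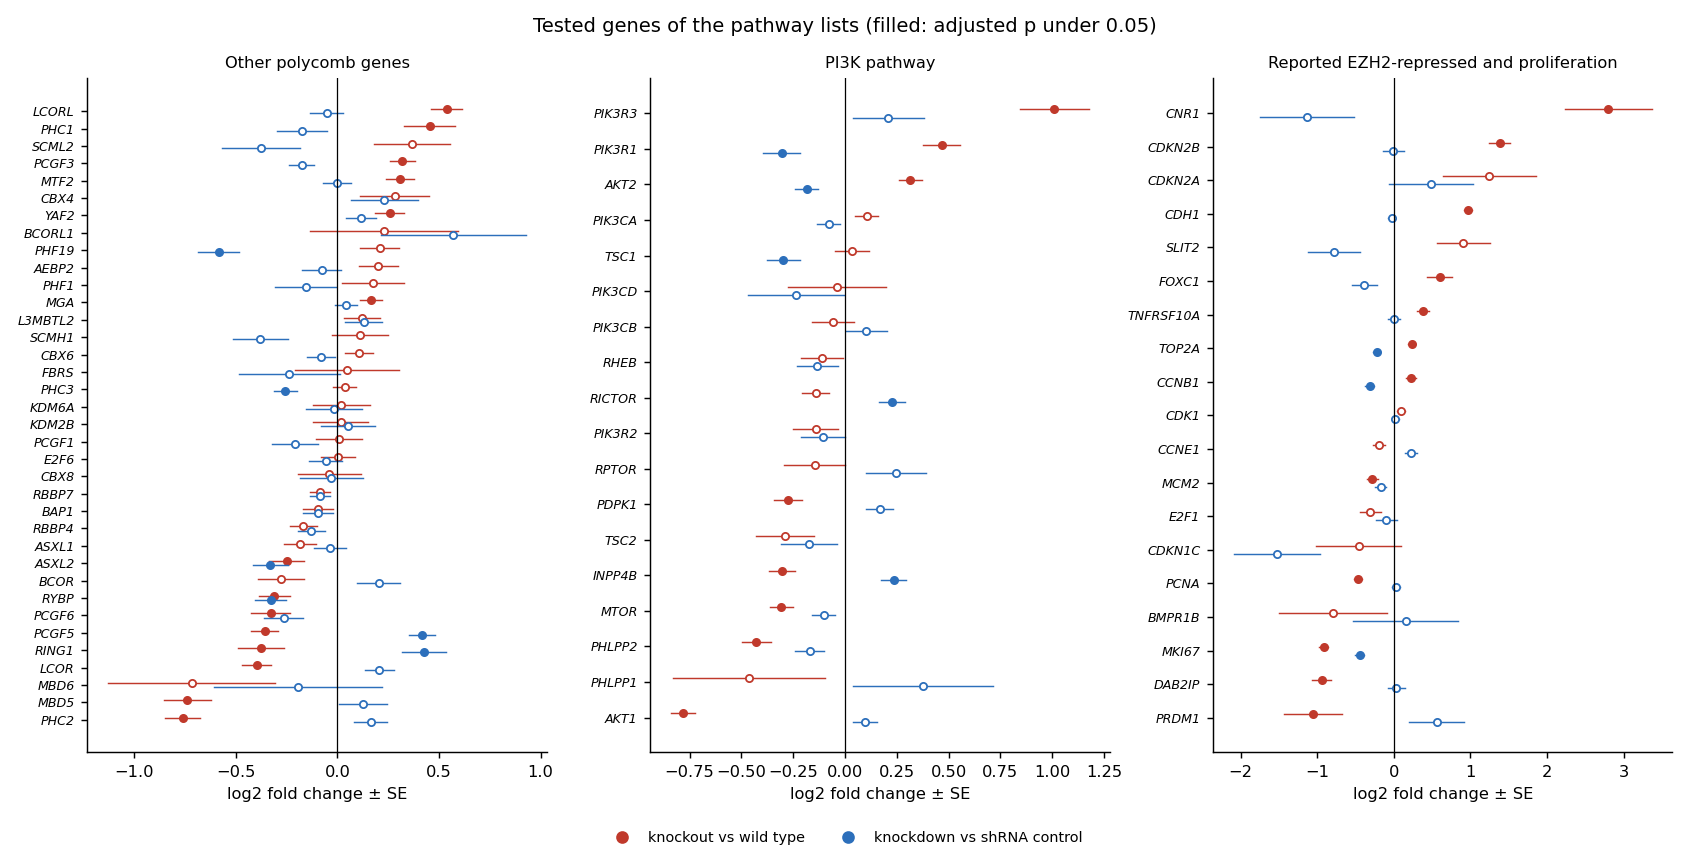
Log2 fold change with its standard error for tested genes of the other polycomb lists, the PI3K pathway, and the genes reported as repressed by EZH2 together with proliferation genes; red is knockout against wild type, blue is knockdown against shRNA control, and filled points have an edgeR adjusted p under 0.05. PCGF5 and RING1 are filled on opposite sides of 0 in the 2 comparisons, and AKT1 and PIK3R3 are the outermost PI3K genes in the knockout. Knockout against shRNA control, where PCGF5 had a log2 difference of -0.01, is not drawn.

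PIK3IP1 acts on the PI3K pathway, whose other genes were read in the same fit. Of 20 tested, 3 rose and 6 fell in knockout cells, against a background of 16.8% higher and 17.8% lower over all tested genes. PIK3R3, a regulatory PI3K subunit, went from 4.34 and 5.76 CPM to 9.62 and 10.8 CPM (log2 change 1.01, edgeR adjusted p = 6.272e-04). PIK3R1, another regulatory subunit, rose by 0.47 (edgeR adjusted p = 0.00188) in knockout cells, to 19.9 and 21.7 CPM. Its shRNA control libraries were at 19.6 and 18.8 CPM (knockout against shRNA control 0.12, edgeR adjusted p = 0.318). AKT1, the kinase downstream of PI3K, fell from 93.6 and 87.4 CPM to 51.6 and 53.7 CPM (log2 change -0.78, edgeR adjusted p = 1.410e-06), and its paralogue AKT2 rose by 0.31 (edgeR adjusted p = 0.00108). PHLPP2, a phosphatase of AKT, fell by a log2 change of -0.43 (edgeR adjusted p = 6.417e-04). These 5 calls passed with each library left out in turn.

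In knockdown cells 2 of the 20 PI3K genes were higher and 4 lower, against 7.62% and 8.22% of all tested genes. PIK3R1 had a log2 change of -0.31 there (edgeR adjusted p = 0.0385), opposite to the knockout, and DESeq2 did not call it (adjusted p = 0.105). INPP4B and RICTOR were higher by 0.23 each, and TSC1 had a log2 change of -0.30. INPP4B was also opposite to the knockout, where its log2 change was -0.30 (edgeR adjusted p = 0.00315) and passed in all 8 fits with a library left out. No call of this list in the knockdown passed in all 8 fits with a library left out, and each of these 4 genes lost its call without any 1 of shRNA control library 1, knockdown library 1 and knockdown library 2. Their log2 changes were then 0.19 to 0.26 for the 2 that were higher and -0.37 to -0.19 for PIK3R1 and TSC1.

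Genes reported elsewhere as repressed by EZH2 were read in the same fit. Of 18 with an ID, 7 were too low to test (among them KLF2, RUNX3 and TIMP3). Of the 11 tested, 5 were higher and 2 lower in knockout cells, against 16.8% and 17.8% of all tested genes, and 5 of these 7 passed in all 8 fits with a library left out. In knockdown cells 0 of the 11 passed in edgeR's quasi-likelihood test, against 15.8% of all tested genes. There 3 had an unadjusted p under 0.05, and DESeq2 called 0. CNR1 passed the filter only through its knockout libraries, at 1.535 and 1.201 CPM against 0.207 and 0.181 CPM in wild type, so the count is a description. CDKN2B, a cell cycle inhibitor of the INK4 locus and a classical polycomb target, rose from 5.62 and 5.58 CPM to 14.8 and 14.4 CPM (log2 change 1.38, edgeR adjusted p = 1.300e-05). Its antisense partner CDKN2B-AS1 was at 13.9 and 15.5 CPM in wild-type cells and at 14.0 and 15.4 CPM in knockout cells, and the strand setting of the counting is not given in the sources used here. CDH1, the epithelial cadherin, rose from 150.7 and 152 CPM to 301 and 290.5 CPM (log2 change 0.96, edgeR adjusted p = 7.934e-08), and TNFRSF10A, a death receptor, rose by 0.39 (edgeR adjusted p = 0.00238). DAB2IP, a Ras GTPase-activating protein, fell from 9.67 and 10.8 CPM to 5.399 and 5.249 CPM (log2 change -0.94, edgeR adjusted p = 1.434e-04). PRDM1 had a log2 change of -1.06 with an edgeR adjusted p of 0.0499, which DESeq2 did not call (adjusted p = 0.0711) and which was lost in 7 of the 8 fits with a library left out. It was -0.49 without wild-type library 1 and -0.84 and -1.32 without knockout library 1 and 2.

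EZH2 is commonly higher in dividing cells, so proliferation genes are given beside it. In knockout cells TOP2A, at 1418 and 1365 CPM in wild type, rose by 0.23 (edgeR adjusted p = 0.00155), while MKI67 fell from 376.9 and 382 CPM to 211 and 192 CPM (log2 change -0.91, edgeR adjusted p = 5.403e-07). PCNA had a log2 change of -0.47 (edgeR adjusted p = 3.324e-05). CCNB1 was higher by 0.23 (edgeR adjusted p = 0.0150), a call lost without knockout library 2 (0.21), and MCM2 had a log2 change of -0.28 (edgeR adjusted p = 0.0111), that did not pass once wild-type library 2 (-0.16) or knockout library 1 (-0.26) was dropped. In all, 2 of the 8 rose and 3 fell, against 16.8% and 17.8% of all tested genes. Set against shRNA control cells, 2 were higher and 2 lower in knockout cells, where 41.8% of all tested genes passed. PCNA (-0.06, edgeR adjusted p = 0.406) and CCNB1 (0.12, edgeR adjusted p = 0.139) did not pass there. In knockdown cells, where EZH2 did not pass, MKI67, TOP2A and CCNB1 had log2 changes of -0.45, -0.22 and -0.31, and the last 2 were lost without shRNA control library 1 (-0.22 and -0.29) or knockdown library 2 (-0.21 and -0.29). The part of proliferation in the EZH2 values was not tested.

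The genes whose log2 CPM followed EZH2 most closely over the 8 libraries, among 12759 tested genes with a symbol and a mean of at least 1 CPM, were the long non-coding RNA LINC00958, the pseudogene ZNF252P and JADE2, with Pearson r of 0.994, 0.988 and 0.987. JADE2 moved much more than EZH2, from 5.001 and 5.215 CPM in wild-type cells to 12.8 and 13.6 CPM in knockout cells. For PIK3IP1 they were CENPS, NADSYN1 and ZBTB47, with r of 0.961, 0.960 and 0.959. The 8 points fall into 4 groups of 2, so these values describe the ranking and carry no test.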

How the data were processed

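RNA of 8 RMG1 libraries in 4 groups of 2 was analysed, with groups and replicate numbers from the labels. Per the labels' protocols, DNase-treated total RNA went into TruSeq Total RNA libraries. The authors deposited 1 table of expected counts (estimated counts per Ensembl gene), made with Bowtie2 and RSEM 1.2.12 on hg19, per the submitters' processing notes. Neither annotation release nor strand setting was given in the sources used here. RSEM divides reads that fit several genes, so values of overlapping genes and near copies are uncertain. The expected counts were whole numbers, so rounding changed none.

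Symbols came from an Ensembl ID table and GENCODE 29, and chromosomes, neighbours and transcript lengths from GENCODE 29 on GRCh38. EPOP, PCGF2 and PECAM1 had no ID match and were not analysed here. Some genes that the rule for named genes would name are not reported here. Promoters are RefSeq's on GRCh38.p14.

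Genes were filtered with filterByExpr and fitted in edgeR 4.0.16 (R 4.3.3) with scaling by trimmed means of M values, 4 group means, all 8 libraries and no block (4 residual degrees of freedom, common biological coefficient of variation 7.74%). Quasi-likelihood F-tests were adjusted by Benjamini-Hochberg over all 16657 genes and called under 0.05. The fit was tested on simulated data. One count was worth 0.0261 to 0.0413 CPM.

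The 10 genes, the lists and the tests were chosen with earlier results of these data known. The named genes are the 10, ARID1A and NCAPH2, per list and main comparison at most 3 called genes with the smallest p in each direction, and the 3 genes most like EZH2 and PIK3IP1. CNR1, CDKN2B-AS1, the named markers and the knockout value of INPP4B were added after their values were seen. Alternatives were 3 other scalings, DESeq2 1.42.0, 2 other filters, a replicate block, a fit of the compared groups alone, each library left out, subtraction of the neighbours' median, another transcript length, and, chosen after seeing the data, sums of BMI1 and SUZ12 with overlapping or copied genes.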

Additional observations from a re-analysis of the deposited data

Results flagged for a closer look

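For SUZ12 the knockout effect minus the knockdown effect was -0.35 on the log2 scale (SE 0.09, edgeR adjusted p = 0.0150). This call was lost without knockout library 1 (-0.29), shRNA control library 1 (-0.31) or knockdown library 2 (-0.30). Both groups of the first comparison were at 85.0 to 93.4 CPM, and the difference came with shRNA control libraries at 66.2 and 70.3 CPM, the lowest 2 of the 8.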

How the results depend on the processing

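Of 825 fold changes of the 10 genes under an alternative setting, 739 kept their direction and their side of the threshold, 27 lost a call, 24 gained one, 31 changed sign, all 31 without a call, and 4 moved by more than their SE when the neighbours' median was subtracted. Of 752 for the other named genes, 95 lost a call and the rest kept it. The replicate numbers pair nothing (correlations of same-numbered deviations between -0.0239 and 0.0296), and a replicate block gave 1, 1, 1, 2 and 4 of the 10 genes called in the 5 comparisons, the same counts as without it. Among the other named genes it ended the calls of PIK3R1 in the knockdown (adjusted p = 0.0539) and PRDM1 in the knockout (adjusted p = 0.0693). The number called in the knockout was 2 with scaling by library size alone, and 0 with DESeq2, without a filter and with only the compared groups. With 1 library left out it was 0 to 1. In the knockdown it was 2 with only the compared groups and 0 to 2 with 1 library left out. For the difference of effects it was 0 to 2 with 1 left out, between the control groups 1 to 4 (4 with library size alone and 4 without a filter), and for knockout against shRNA control 2 to 4. The knockdown's pathway list calls were 15, and 3 to 19 with 1 library left out. Over all genes, 2639 knockdown calls became 1360 to 3494 and 3205 calls between the control groups became 1553 to 3410. The EZH2 to EZH1 level was 0.482 on the median transcript. The causes were not tested.

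All sign changes were of values without a call. In the knockout, library size alone gave EZH1 0.000666 and BMI1 0.0255, upper quartile scaling gave BMI1 0.0110, and the BMI1 sums gave 0.146 and 0.150. With 1 library left out, the knockout values ran from -0.0913 to 0.0142 for EZH1, -0.237 to 0.0123 for EED, -0.00855 to 0.102 for RNF2, -0.239 to 0.185 for BMI1 and -0.0663 to 0.236 for PIK3IP1. In the knockdown, EZH2 was 0.00560 with library size alone and 0.104 less its neighbours' median, EED 0.0256 and CBX2 -0.0504 less theirs. With 1 library left out, they ran from -0.0622 to 0.0310 for EZH2, -0.107 to 0.000774 for EZH1, -0.158 to 0.0341 for EED and -0.117 to 0.150 for CBX2. For the difference of effects they ran from -0.0401 to 0.0659 for EZH1, -0.183 to 0.0669 for EED and -0.0816 to 0.342 for BMI1, and between the control groups from -0.0355 to 0.710 for CBX2. Depth limits CBX2, CBX7 and PIK3IP1.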

Other observations

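RNF2 and the BMI1 sum had means that ran from knockout, through wild type and shRNA control, down to knockdown, and EZH2 had its 4 highest libraries in knockout and wild-type cells. EZH1, JARID2 and PIK3IP1 were higher in both shRNA groups than in wild-type cells, with every shRNA library above both wild-type libraries for each of the 3. For EZH2, SUZ12, EED, RNF2 and BMI1 every shRNA library lay below both wild-type libraries. The share of all tested genes with such a gap was not counted, and 57.5% had no overlap between shRNA control and wild type. What else separates the shRNA pair from the other pair is not given in the sources used here, so the effect of the shRNA procedure and that of another difference between the pairs cannot be told apart.

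The EZH2 to SUZ12 count ratio was 0.524 and 0.517 in wild-type cells, 0.654 and 0.587 in knockout cells, 0.677 and 0.638 in shRNA control cells, and 0.575 and 0.503 in knockdown cells. It was looked at after the values were seen and was not tested. Wild-type and knockdown cells had the lower values and knockout and shRNA control cells the higher ones, without overlap.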
